A study of Homo sapiens with 12 samples.

Results

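The course of gene expression in LNCaP cells that received a precursor of the microRNA miR-135b was followed over 12, 24 and 36 h on 6 of the 12 arrays of the series. The 6 arrays were chosen by their sample titles alone, 2 for each time, and every gene that passed the detection filter was compared at 24 h against 12 h, at 36 h against 24 h and at 36 h against 12 h. LNCaP is an established human prostate carcinoma line that responds to androgen. The other 6 arrays, 2 for each time, were of LNCaP cells that received a scrambled precursor, and they served as the background of each comparison. Both precursors were used at 20 nM in normally growing cells. The 2 arrays of a group are biological repeats by the submitters' design text, and carry the numbers 1 and 2. The question, by the series title, was how expression responds to raised miR-135b. No array of cells before transfection was analysed here, so within miR-135b cells the action of the microRNA and the time in culture after transfection cannot be told apart without the scrambled arrays of the same times.

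MicroRNAs are short RNAs that guide Argonaute proteins to messenger RNAs, most often through pairing of their seed with sites in the messages, which lowers the stability and translation of those messages. A transfected precursor is processed in the cell into the mature strand, so direct targets can change early and genes further downstream later. miR-135b is known in prostate cancer cells from work on androgen signalling and on the oxygen sensor gene HIF1AN. The mature strand that the precursor yields is shown because it defines the treatment, with its seed in capitals (bases 2 to 8 of 23, RefSeq, GRCh38.p14, chr1:205448361-205448383, minus strand).
hsa-miR-135b-5p: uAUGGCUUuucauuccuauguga

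RNA was hybridised to Illumina arrays with 47323 probes, and a level below is a log2 signal after background correction, an offset of 16 and quantile normalization. Each gene is represented by its probe of highest mean, which gave 11238 genes. Between 15982 and 17856 probes, or 33.8% to 37.7%, were detected on the 6 arrays of miR-135b cells. The repeats correlated at r = 0.989 at 12 h, 0.989 at 24 h and 0.979 at 36 h over the kept probes, and their median SD was 0.131, 0.134 and 0.177, so 36 h was the least precise time. The non-normalized median signal lay between 109 and 115 on the 6 arrays of repeat 1 and between 99.0 and 107 on those of repeat 2, treated and scrambled alike. All 18 luminal prostate markers with a probe here were detected on all 6 arrays of miR-135b cells. Of the basal epithelial markers 0 or 1 of 8 were detected at a time, of the leukocyte markers 2 of 10, and 4 or 5 of 12 fibroblast and smooth muscle markers. CD68 and HLA-DRA, of the leukocyte list, were detected on all 6 arrays, and PTPRC, CD3D and CD3E on none. Of the fibroblast list, COL1A1, TAGLN and ACTA2 were detected on all 6 and FBLN1 on 5, and COL1A2, COL3A1, DCN and LUM on none.

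Of the 3 comparisons within miR-135b cells, that of 36 h against 12 h gave calls. The genes that rose included RSPH1, CFAP70 and 4 other genes of motile cilia, and those that fell included 13 genes of DNA replication, MCM10 and MCM4 among them, and the immediate early genes FOS, JUN, DUSP1 and ZFP36. At 36 h against 12 h, 75 genes rose and 66 fell of 11238 tested, which is 0.667% and 0.587%, or 141 genes and 1.25% in all (limma, Benjamini-Hochberg adjusted p, threshold 0.05). The median log2 fold change was 0.91 among the genes that rose, 25 of them by at least 2-fold, and -0.84 among those that fell, 17 of them by at least 2-fold. Over all genes the median was 0.00. In scrambled cells 63 of the 75 genes that rose also had a fold change above 0 and 61 of the 66 that fell one below 0, with medians of 0.31 and -0.32. The value in scrambled cells is given beside many of the genes below, though not beside each.

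These 141 calls lie close to the threshold. No gene passed when any 1 of the 4 arrays of miR-135b cells at 12 or 36 h was left out, and none in a fit to the 6 arrays of miR-135b cells alone, which has 3 residual degrees of freedom in place of 6. In each of these fits, those of the 141 genes that were tested kept their sign. Fold changes in the 6-array fit are those of the fit to all 12 arrays. The other fits share most of their arrays with it, so kept signs are a description and no test of the calls. With any 1 of the other 8 arrays left out, between 7 and 22 genes passed. BBOF1, CFAP70, FOS, GASK1B, RSPH1, DNAAF11 and BCHE passed in 8 of those 8 fits.

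**Figure D1:**
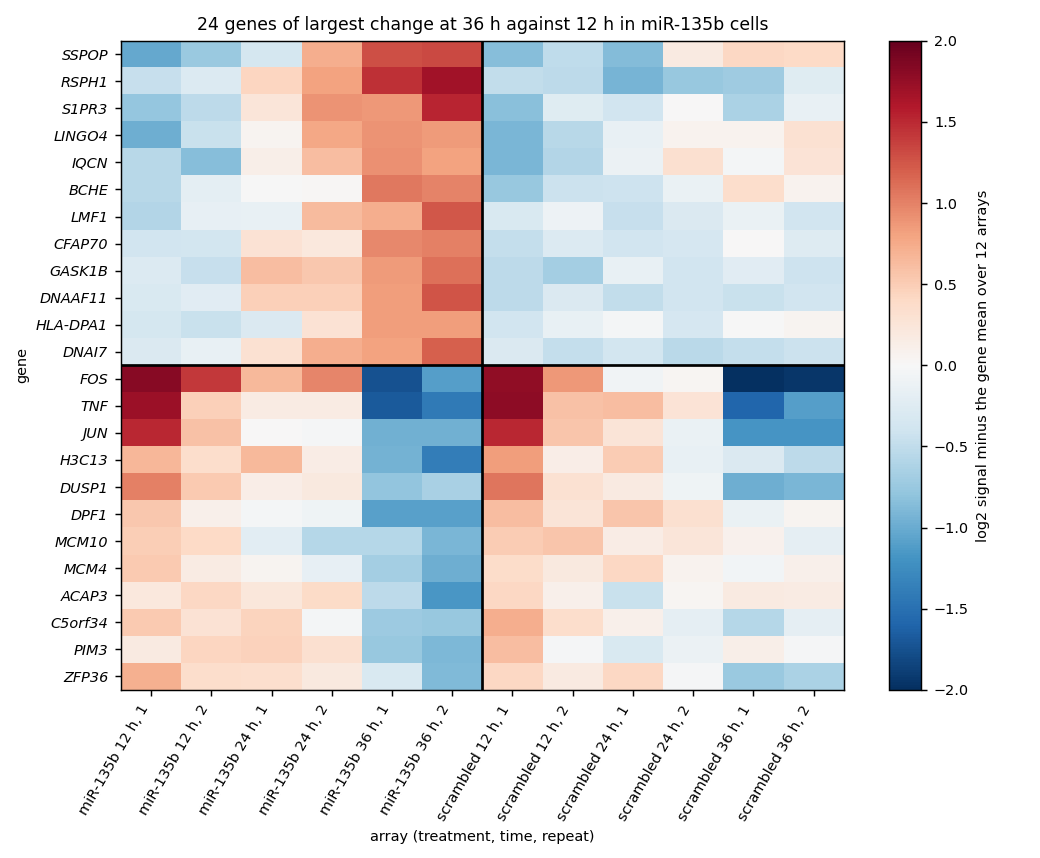
Log2 signal of 24 genes on all 12 arrays, each minus the mean of its gene over the arrays, for the 12 genes that rose and the 12 that fell most at 36 h against 12 h in miR-135b cells. Columns are arrays by treatment, time and repeat, and colours stop at -2 and 2. FOS, TNF, JUN and DUSP1 run alike in both treatments, while RSPH1 and CFAP70 are highest at 36 h in miR-135b cells.

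Motile cilia are built on an axoneme of microtubule doublets with dynein arms, radial spokes and linking complexes, and their genes are usually quiet in cells that carry no motile cilia. Of 102 listed genes of the axoneme and of ciliogenesis, 86 had a probe and 39 were measured, and 6 of the 39 rose at 36 h against 12 h: RSPH1, CFAP70, BBOF1, DNAAF11, DNAAF4 and ROPN1L. MYB, a transcription factor that acts early in multiciliated cells and also in proliferation, fell. The median over the 39 genes was 0.29 in miR-135b cells and -0.15 in scrambled cells, against 0.00 and -0.01 over all genes. It came to 0.19 on the authors' processed values and to 0.10 without the detection filter, when genes at background entered. Of the 39 genes, 5 were detected on no scrambled array, DNAAF11 and DNAAF4 among them. The filter kept those through miR-135b arrays, so the count of 6 and the median are a description.

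RSPH1, which encodes a head protein of the radial spoke, had log2 signals of 6.12 and 6.31 at 12 h, 7.01 and 7.39 at 24 h and 8.05 and 8.27 at 36 h in miR-135b cells. In scrambled cells it had 6.09 and 6.06, 5.65 and 5.83, and 5.88 and 6.34 at the same times. The 3 times of miR-135b cells did not overlap, and at 24 and 36 h they lay above all scrambled arrays. RSPH1 rose by 1.94 ± 0.19 at 36 h against 12 h (log2 fold change ± SE, 3.85-fold, adjusted p = 0.00933), in 2 near-equal steps of 0.99 at 24 h minus 12 h and 0.96 at 36 h minus 24 h. Its change in scrambled cells was 0.04. CFAP70, a protein of cilia and flagella, had 6.40 and 6.41, 7.06 and 6.99, and 7.75 and 7.79 in miR-135b cells at the 3 times, against 6.30 and 6.51, 6.40 and 6.44, and 6.79 and 6.52 in scrambled cells. It rose by 1.36 ± 0.13 (adjusted p = 0.00933), again without overlap between the times. Naming genes by their calls favours such separation, so it is given as a description here and below.

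BBOF1, a basal body gene, had 7.25 and 7.37 at 12 h, 8.27 and 8.04 at 24 h and 8.60 and 8.45 at 36 h in miR-135b cells. It rose by 1.21 ± 0.14 (adjusted p = 0.0156), and 0.84 of this lay in the first interval. Scrambled cells stayed between 6.73 and 6.93 at every time. ROPN1L, which encodes a protein of the flagellar fibrous sheath, rose by 1.14 ± 0.17 at 36 h against 12 h (adjusted p = 0.0402), and all of that difference was already there at 24 h: it had 5.99 and 6.03 at 12 h, 7.26 and 7.19 at 24 h and 7.21 and 7.10 at 36 h.

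DNAAF11 and DNAAF4, factors that assemble dynein arms in the cytoplasm, were below detection on both arrays of 12 h and detected on both of 36 h. DNAAF11 had 5.91 and 6.33 at 36 h and 4.77 and 4.85 at 12 h, which is at least 1.38-fold higher (adjusted p = 0.0189). DNAAF4 had 5.25 and 5.0 at 12 h, 5.05 and 5.18 at 24 h and 6.19 and 5.91 at 36 h, at least 1.32-fold higher at 36 h than at 12 h (adjusted p = 0.0402). The other kept probe of DNAAF4, detected on 1 array of miR-135b cells, read 0.46. Such a bound takes, for each array below detection, the larger of 2 signals, that of the probe itself and the lowest signal detected on that array, and sets the detected group's mean over them. DNAI7, a dynein-associated axonemal protein outside the list, was at least 1.35-fold higher at 36 h (adjusted p = 0.0396), with 5.89 and 6.27 at 36 h and 4.78 and 4.93 at 12 h. It was one of the 12 genes with the largest fitted rise.

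Among the 32 cilia genes that did not pass, DRC3 had the largest positive difference at 36 h minus 12 h, 1.21, followed by TTC29 at 0.99, ZMYND10 at 0.92, IFT88 at 0.73 and CFAP45 at 0.71. SPAG1 at -0.59, RFX2 at -0.47 and MNS1 at -0.45 were at the other end. In this list 15 genes had an unadjusted p under 0.05 in the positive direction and 3 in the negative, where over all genes 8.45% and 8.82% did so. The detection filter chose the members, so these counts are a description. Further genes that passed and have known ties to cilia were picked after their values were seen. They are TCTN1 and B9D1, of the transition zone at the base of the cilium, at 0.74 and 0.79, the dynein arm assembly factor DNAAF19 at 0.83, PIERCE1 at 0.72, NME5 at 0.82 and DPCD at 0.67.

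The promoter of TCTN1 is shown because it holds an X-box, the palindromic element that RFX factors bind in ciliary promoters, in capitals and beginning at the annotated start base (RefSeq, GRCh38.p14, chr12:110613879-110614178, plus strand).
TCTN1 promoter: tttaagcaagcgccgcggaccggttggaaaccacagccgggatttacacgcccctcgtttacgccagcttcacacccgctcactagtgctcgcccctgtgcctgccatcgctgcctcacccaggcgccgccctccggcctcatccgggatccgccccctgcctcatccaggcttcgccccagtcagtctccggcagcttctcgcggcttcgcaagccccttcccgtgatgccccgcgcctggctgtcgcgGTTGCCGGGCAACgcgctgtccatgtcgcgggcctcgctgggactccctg
Windows of 250 bases before to 50 bases after each annotated start were searched on both strands, and a palindrome matches both strands at once. The X-box was found for 4 of the 58 genes that rose and have a window (6.90%), namely B9D1, CCDC92, DNAAF19 and TCTN1, for 6 of 30 measured cilia genes (20.0%), for 2.13% of the genes tested and for 1.61% of all genes with a window.

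**Figure D2:**
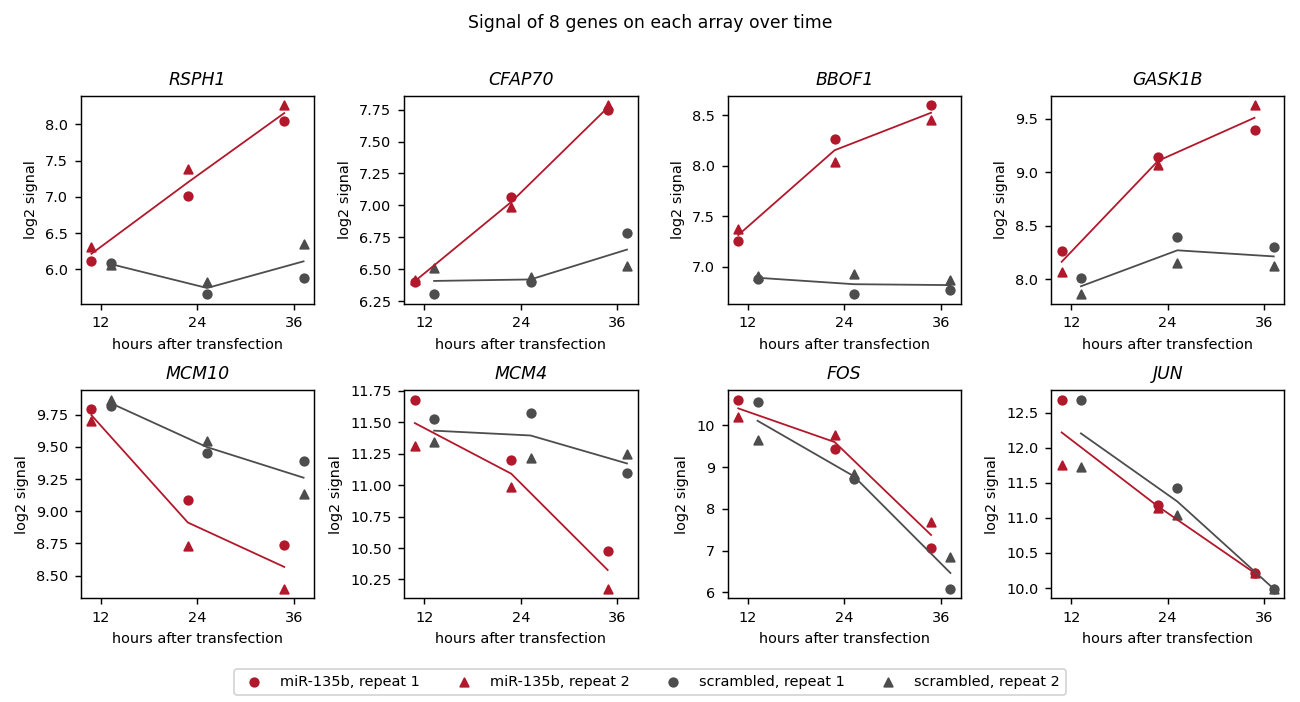
Log2 signal of 8 genes on each array against hours after transfection, with a symbol per array (circle, repeat 1; triangle, repeat 2), a line through the means, and small sideways shifts that keep the treatments apart. RSPH1, CFAP70, BBOF1 and GASK1B climb in miR-135b cells and stay low in scrambled cells, MCM10 and MCM4 fall further in miR-135b cells, and FOS and JUN fall in both.

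DNA replication starts when the MCM helicase is loaded at origins and then switched on with CDC45 and the GINS complex, and most of these genes are transcribed late in G1 under E2F control. At 36 h against 12 h, 13 of 50 measured genes of G1/S and replication fell and 0 rose: MCM10, MCM4, EXO1, E2F2, GINS3, UHRF1, CHAF1B, FEN1, GINS2, RRM2, CDC45, POLE2 and RFC4. All 50 had a value below 0 in miR-135b cells, between -0.07 and -1.18, and 43 of the 50 had one below 0 in scrambled cells. The median was -0.66 in miR-135b cells and -0.19 in scrambled cells, against 0.00 and -0.01 over all genes. In bulk RNA, fewer cells in S phase and less of each message per cell cannot be told apart. The median lay between -0.73 and -0.52 over the alternatives run.

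MCM10, which links the helicase to the start of synthesis, had 9.79 and 9.70 at 12 h, 9.09 and 8.73 at 24 h and 8.74 and 8.40 at 36 h in miR-135b cells. In scrambled cells it had 9.81 and 9.86, 9.45 and 9.54, and 9.39 and 9.13. MCM10 fell by 1.18 ± 0.17 in miR-135b cells (adjusted p = 0.0358), with no overlap between 12 h and the later times, and its difference in scrambled cells was -0.58. Its other kept probe read -0.94. MCM4, a subunit of the helicase, fell by 1.17 ± 0.19 (adjusted p = 0.0402), with 10.48 and 10.17 at 36 h against 11.68 and 11.31 at 12 h. Its other probe read -1.25. The difference in scrambled cells was -0.26, with all 6 scrambled arrays between 11.10 and 11.57.

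GINS2, GINS3 and CDC45 of the active helicase fell by 0.75, 0.81 and 0.73 on the log2 scale at 36 h against 12 h, and had values of -0.02, -0.08 and 0.01 in scrambled cells. GINS2 had 10.80 and 10.71 at 12 h, 10.20 and 10.16 at 24 h and 10.04 and 9.97 at 36 h, so most of its difference lay before 24 h. RRM2, the small subunit of ribonucleotide reductase, had 9.61 and 9.80 at 12 h, 9.57 and 9.54 at 24 h and 9.02 and 8.93 at 36 h, a fall of 0.73 at 36 h against 12 h (adjusted p = 0.0403), with 9.67 and 9.58 at 36 h in scrambled cells. E2F2, itself an activator of these genes, fell by 1.04 ± 0.20 (adjusted p = 0.046), and EXO1, a repair exonuclease, by 1.11 ± 0.22 (adjusted p = 0.0473). Scrambled cells had -0.24 for E2F2 and -0.37 for EXO1. ORC6 was the member nearest to 0, at -0.07, while its other probe read -0.94. Among genes outside the list that passed and were picked after their values were seen, the checkpoint kinase CHEK1 fell by 0.87, the helicase BLM by 0.88, CDCA7 by 0.86 and ATAD2 by 0.75.

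The promoter of GINS2 is shown because it holds an E2F site, in capitals at position -31 from the start and on the reverse strand (RefSeq, GRCh38.p14, chr16:85688905-85689204, minus strand).
GINS2 promoter: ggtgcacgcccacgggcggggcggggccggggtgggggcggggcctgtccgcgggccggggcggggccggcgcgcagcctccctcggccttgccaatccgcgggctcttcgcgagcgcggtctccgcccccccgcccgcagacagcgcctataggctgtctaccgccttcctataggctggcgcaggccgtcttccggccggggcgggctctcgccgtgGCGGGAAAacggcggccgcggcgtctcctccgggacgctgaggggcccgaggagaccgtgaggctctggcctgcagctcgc
The E2F letters searched were TTTGGCGC, TTTCCCGC, TTTCGCGC and TTTGCCGC. At least 1 of them was found for 13 of the 57 genes that fell and have a window (22.8%), GINS2, GINS3, E2F2, EXO1, POLE2 and UHRF1 among them. It was found for 2 of 58 genes that rose (3.45%), for 25 of 42 measured G1/S genes (59.5%), for 6.78% of the genes tested and for 3.99% of all genes with a window.

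Of 51 measured G2/M genes, which act in mitosis, 2 fell at 36 h against 12 h, CDCA3 and SPC25, and 0 rose, with a median of -0.45 in miR-135b cells and -0.10 in scrambled cells. At 24 h minus 12 h the median was 0.13, with 33 of 51 above 0, and at 36 h minus 24 h it was -0.61, with 48 of 51 below 0. The list's median deviation from the gene means was 0.16 and 0.01 on the arrays of 12 h, 0.25 and 0.07 at 24 h and -0.45 and -0.40 at 36 h in miR-135b cells. In scrambled cells it was 0.09 and -0.01, 0.23 and 0.23, and -0.10 and -0.04, so the turn after 24 h was seen in both treatments and reached lower values in miR-135b cells. No gene passed in either interval alone, and 34 of the 51 had an unadjusted p under 0.05 in the negative direction at 36 h against 24 h, where 4.61% of all genes did. The list was chosen with earlier results of these data known, so this count is a description.

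CENPA, the histone variant of centromeres, had 10.06 and 10.09 at 12 h, 10.56 and 10.32 at 24 h and 9.51 and 9.37 at 36 h in miR-135b cells. In scrambled cells it had 10.11 and 10.12, 10.35 and 10.27, and 9.59 and 9.94. Its difference at 36 h minus 24 h was -1.0 ± 0.15 (adjusted p = 0.162), that of the mitotic kinesin KIFC1 -1.17 ± 0.17 and that of UBE2C, a ubiquitin carrier of the anaphase-promoting complex, -0.94 ± 0.15, at the same adjusted p. For none of these did the 24 h and 36 h arrays of miR-135b cells overlap, which their choice by the smallest p favours. CDCA3, a mitotic entry factor, had 10.06 and 9.72 at 12 h, 9.60 and 9.37 at 24 h and 9.17 and 9.01 at 36 h, and fell by 0.79 ± 0.15 at 36 h against 12 h (adjusted p = 0.0448). SPC25, a kinetochore protein, fell by 0.66 ± 0.13 (adjusted p = 0.0463). CDCA3 and SPC25 had -0.17 and -0.40 in scrambled cells. FAM83D, SGO1, SMC4 and CDCA5, picked after their values were seen, fell by 0.82, 0.84, 0.65 and 0.92.

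The promoter of CDCA3 holds a CHR element, TTTGAA, the letters that the DREAM complex reads in many mitotic promoters, here in capitals at position -3 (RefSeq, GRCh38.p14, chr12:6851237-6851536, minus strand). It is shown because CDCA3 fell while most of the list did not pass.
CDCA3 promoter: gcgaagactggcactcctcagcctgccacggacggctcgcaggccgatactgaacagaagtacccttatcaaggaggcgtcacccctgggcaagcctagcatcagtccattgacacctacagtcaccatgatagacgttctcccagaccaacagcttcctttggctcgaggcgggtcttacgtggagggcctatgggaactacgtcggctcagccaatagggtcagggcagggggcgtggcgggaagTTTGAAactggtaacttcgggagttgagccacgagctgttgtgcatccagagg
These letters were found for 32 of 43 measured G2/M genes (74.4%), for 13.7% of the genes tested and for 18.2% of all genes with a window. Such a short motif has many matches, and 10 of 57 genes that fell (17.5%) and 10 of 58 that rose (17.2%) held it.

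**Figure D3:**
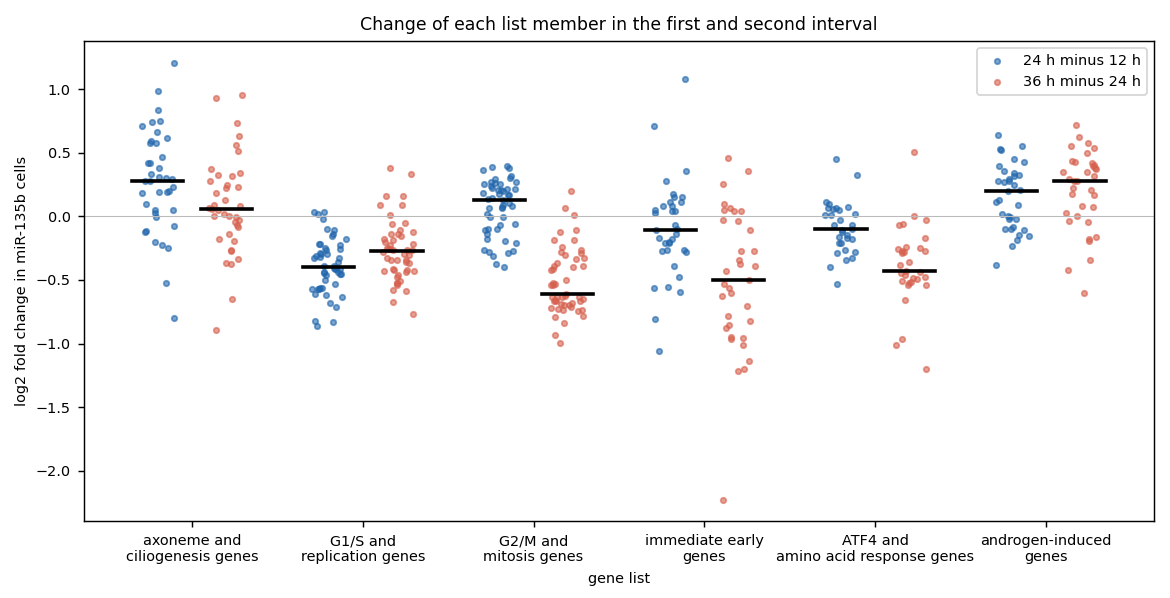
Log2 fold change of each measured member of 6 gene lists in miR-135b cells, for 24 h minus 12 h and for 36 h minus 24 h, with a bar at each median. The G1/S medians are -0.40 and -0.27, while the G2/M medians are 0.13 and -0.61.

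Immediate early genes are switched on within minutes of a stimulus and need no new protein for it. They include the AP-1 subunits FOS and JUN, the EGR and KLF factors and the feedback phosphatases of the DUSP family. Of 35 measured members, 4 fell at 36 h against 12 h, FOS, JUN, DUSP1 and ZFP36, and 0 rose. The median was -0.60 in miR-135b cells and -0.57 in scrambled cells, and 26 of 35 values were below 0 in miR-135b cells. It was -0.35 on the authors' processed values and -0.30 when repeat 1 of miR-135b cells at 12 h was left out. That array stood apart from its repeat on this list, with a median deviation of 0.38 against -0.01, as did the scrambled array of 12 h, repeat 1, with 0.41 against -0.01 for its own repeat.

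FOS had 10.62 and 10.20 at 12 h, 9.44 and 9.76 at 24 h and 7.05 and 7.69 at 36 h in miR-135b cells. In scrambled cells it had 10.57 and 9.66, 8.73 and 8.83, and 6.08 and 6.84. FOS fell by 3.04 ± 0.35 at 36 h against 12 h in miR-135b cells (8.21-fold, adjusted p = 0.0156), the largest change of any gene measured there. Its value in scrambled cells was -3.65, and most of the difference came after 24 h in both treatments. JUN had 12.68 and 11.76, 11.19 and 11.14, and 10.22 and 10.21 at the 3 times in miR-135b cells and fell by 2.0 ± 0.33 (adjusted p = 0.0406), with -2.22 in scrambled cells. DUSP1, which switches off MAP kinases, fell by 1.48 ± 0.24 (adjusted p = 0.0403), with 10.02 and 10.16 at 36 h against 11.81 and 11.33 at 12 h. ZFP36, which drives decay of messages with AU-rich elements, fell by 1.13 ± 0.22 (adjusted p = 0.0475). The values in scrambled cells were -1.63 and -0.98.

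The remaining 31 members did not pass. The most negative were IER3 at -1.61, EGR1 at -1.58, ATF3 at -1.30, PPP1R15A at -1.18, FOSB at -0.81, DUSP4 at -0.77, TRIB1 at -0.77, JUNB at -0.74, JUND at -0.67, KLF4 at -0.66 and DUSP2 at -0.65. IER3 was below detection on both arrays of 36 h, which is at least 2.12-fold lower than at 12 h. KLF6, KLF10 and MAFF had -0.61, -0.60 and -0.60, IER5 had -0.55, ARC and IER2 -0.48 each, CSRNP1 -0.44 and KLF2 -0.39. Other kept probes read -1.98 for ATF3, -0.59 for KLF4, -1.18 and 0.31 for KLF10 and 0.05 for MAFF. DUSP5 and SGK1 at -0.06 and FOSL2 at -0.01 were close to 0, as were SRF at 0.04, BTG1 and DUSP6 at 0.08 and ZFP36L1 at 0.10. Above these were GADD45B at 0.12, MYC at 0.21, CCN1 and MCL1 at 0.26 and CCN2 at 0.68, which was detected on 0, 1 and 1 array of the 3 times. The other kept probes of MYC and MCL1 read 0.60 and -0.05. GADD45B had an excursion of its own, with 7.08 and 7.12 at 12 h, 8.23 and 8.14 at 24 h and 6.98 and 7.46 at 36 h, and the same shape in scrambled cells.

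The promoter of DUSP1 is shown because it holds a CRE, the palindrome TGACGTCA that factors of the CREB and ATF families bind, in capitals at position -125 (RefSeq, GRCh38.p14, chr5:172771146-172771445, minus strand).
DUSP1 promoter: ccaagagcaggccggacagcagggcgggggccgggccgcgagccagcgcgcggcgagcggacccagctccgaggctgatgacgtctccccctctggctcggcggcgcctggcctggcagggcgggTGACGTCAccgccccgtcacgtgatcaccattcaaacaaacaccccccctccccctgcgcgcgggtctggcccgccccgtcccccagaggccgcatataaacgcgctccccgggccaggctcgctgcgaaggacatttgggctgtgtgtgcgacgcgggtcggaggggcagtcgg
The CRE was found for 5 of 26 measured immediate early genes with a window (19.2%), for 3.97% of the genes tested and for 2.25% of all genes with a window.

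TNF, an inflammatory cytokine and target of NF-kB, fell with the immediate early genes. It had 8.85 and 7.61 at 12 h, 7.30 and 7.30 at 24 h and 5.46 and 5.73 at 36 h in miR-135b cells, where 1 of 2 arrays was above detection. TNF fell by 2.63 ± 0.43 (adjusted p = 0.0403), and its value in scrambled cells was -2.53. It was the 1 of 14 measured NF-kB targets that passed, and the median of these was -0.55 in miR-135b cells and -0.90 in scrambled cells. Repeat 1 of 12 h stood apart on this list too, with 0.52 against -0.16 for repeat 2 in miR-135b cells and 0.74 against 0.05 in scrambled cells, and without it the median in miR-135b cells was -0.06. Of 31 ATF4 and amino acid response genes, 0 passed, with 29 of 31 below 0 and a median of -0.46, against -0.34 in scrambled cells. Of 34 unfolded protein and heat shock genes, HSPA1B, an inducible HSP70 gene with a near-identical copy that its probe may also read, fell by 0.73, and MT1F, of the metallothionein family, by 0.99. Scrambled cells had -0.59 and -1.10 for these.

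**Figure D4:**
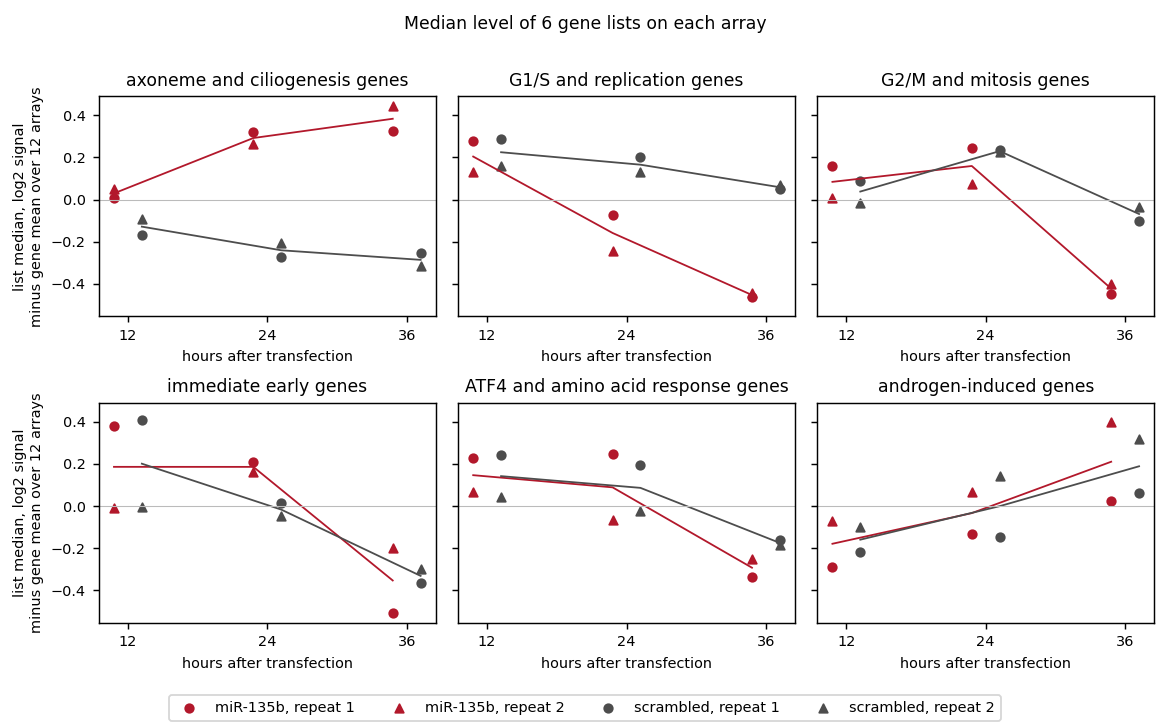
Median of 6 gene lists on each array, as log2 signal minus the gene's mean over the 12 arrays, against hours after transfection, with circles for repeat 1, triangles for repeat 2 and a line through the means. In miR-135b cells at 24 and 36 h the cilia list lies between 0.26 and 0.44, and on all scrambled arrays below 0. Values are centred on the 12 arrays, so high values in miR-135b cells lower those of scrambled cells. The cilia list holds 5 genes detected on no scrambled array. The androgen-induced list has its highest value at 36 h, repeat 2, in both treatments.

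Of 35 measured genes that androgen induces in prostate cells, 3 rose at 36 h against 12 h in miR-135b cells. They were the retinaldehyde dehydrogenase gene ALDH1A3, the ion channel gene TRPM8 and the scaffold gene IQGAP2. In scrambled cells 0 passed, where only 2 of all 11238 genes did, 0 of them higher. An unadjusted p under 0.05 in the positive direction was reached by 10 of the list in miR-135b cells and 13 in scrambled cells. The difference was above 0 for 26 of 35 in miR-135b cells and 31 of 35 in scrambled cells, with medians of 0.40 and 0.39. Repeat 2 lay above repeat 1 on this list at every time in both treatments, at 36 h with deviations of 0.40 against 0.02 in miR-135b cells and 0.32 against 0.06 in scrambled cells, and the median in miR-135b cells was 0.25 without repeat 2 of 36 h. TRPM8 had 6.96 and 7.28 at 12 h, 7.56 and 7.48 at 24 h and 8.07 and 8.40 at 36 h, and rose by 1.11 ± 0.20 (adjusted p = 0.0435), with 0.98 in scrambled cells. ALDH1A3 rose by 1.19 ± 0.19 (adjusted p = 0.0402), with 10.23 and 10.38 at 36 h against 8.93 and 9.30 at 12 h, and had 0.41 in scrambled cells. IQGAP2 rose by 0.68 ± 0.12 (adjusted p = 0.0435) and had -0.02 in scrambled cells. Of 12 measured genes that androgen represses, 2 also rose: BCHE, which encodes butyrylcholinesterase, and DDC, the decarboxylase that makes dopamine. The median of those 12 was 0.37, against 0.35 in scrambled cells.

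BCHE had 6.52 and 6.88 at 12 h, 7.06 and 7.09 at 24 h and 8.12 and 8.07 at 36 h, a rise of 1.40 ± 0.18 at 36 h against 12 h (adjusted p = 0.0257), and its other probe also read 1.40. Most of this lay after 24 h, and scrambled cells had 0.81. DDC rose by 0.62 and had 0.71 in scrambled cells. ACTA2, the smooth muscle actin, had 7.26 and 7.34 at 12 h, 8.0 and 7.93 at 24 h and 8.56 and 8.40 at 36 h in miR-135b cells, and rose by 1.18 ± 0.19 (adjusted p = 0.0402). In scrambled cells it lay between 6.44 and 7.06. MYLK, the myosin light chain kinase gene, was at least 1.65-fold higher at 36 h than at 12 h in miR-135b cells (adjusted p = 0.0358). Its fitted log2 value in scrambled cells was 0.56. Of the 12 fibroblast and smooth muscle markers, 4 were measured, ACTA2 alone passed, and the summed non-normalized signal of the list was 1668 to 1723 at 12 h, 1767 to 1803 at 24 h and 1917 to 2037 at 36 h in miR-135b cells, against 1568 to 1742, 1510 to 1609 and 1536 to 1752 in scrambled cells. The sum includes ACTA2 itself, so it is no separate measure of such cells. The part of such cells in the rise of ACTA2 was not tested.

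Other genes with the largest rises belonged to none of the lists. SSPOP, a pseudogene related to the gene of SCO-spondin, had 5.97 and 6.24 at 12 h, 6.64 and 7.72 at 24 h and 8.28 and 8.31 at 36 h and rose by 2.19 ± 0.37 (adjusted p = 0.0406), with 1.08 in scrambled cells. S1PR3, a receptor for sphingosine-1-phosphate, rose by 1.83 ± 0.31 (adjusted p = 0.0406), with 9.90 and 10.56 at 36 h against 8.26 and 8.52 at 12 h, and had 0.15 in scrambled cells. GASK1B, a Golgi-associated kinase, had 8.26 and 8.07 at 12 h, 9.15 and 9.07 at 24 h and 9.39 and 9.63 at 36 h and rose by 1.35 ± 0.15 (adjusted p = 0.0156). Its other kept probes read 0.94 and 0.16, so its probes disagreed. IQCN rose by 1.56 ± 0.22 (adjusted p = 0.0358), with 0.87 in scrambled cells. LINGO4, LMF1, a factor that matures lipases, and HLA-DPA1, a chain of an antigen-presenting MHC class II molecule, were below detection at 12 h and at least 2.11-fold, 1.57-fold and 1.16-fold higher at 36 h. Their fitted log2 values in scrambled cells were 0.92, -0.05 and 0.28.

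Among the larger falls outside the lists, PIM3, a serine/threonine kinase gene, had 6.88 and 7.12 at 12 h, 7.15 and 7.02 at 24 h and 5.93 and 5.80 at 36 h in miR-135b cells. PIM3 fell by 1.13 ± 0.20 at 36 h against 12 h (adjusted p = 0.0435), all of it after 24 h, with -0.25 in scrambled cells. DPF1, a subunit of chromatin remodelling complexes, was at least 1.91-fold lower at 36 h (adjusted p = 0.0257) and ACAP3, which acts on ARF GTPases, at least 1.21-fold lower (adjusted p = 0.049), both below detection on the arrays of 36 h. H3C13, a histone H3 gene whose close copies its probe may also read, was at least 2.63-fold lower (adjusted p = 0.0435), and its other probe read -0.73. Fitted log2 values in scrambled cells were -0.90 for H3C13, -0.48 for DPF1 and -0.09 for ACAP3. C5orf34 fell by 1.15 ± 0.21 (adjusted p = 0.0441), with -0.90 in scrambled cells.

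Of 20 measured genes reported as targets of miR-135, 0 passed at 24 h against 12 h, at 36 h against 24 h or at 36 h against 12 h, and the medians were -0.07, 0.04 and -0.04, with -0.04 in scrambled cells for the last. HIF1AN, an oxygen-dependent hydroxylase of HIF1A, had 6.88 and 6.62 at 12 h, 6.85 and 6.97 at 24 h and 6.29 and 6.73 at 36 h in miR-135b cells. Its scrambled arrays, at 7.64 and 7.50, 7.65 and 7.89, and 7.37 and 7.87, lay above these at every time, so the gap was there at 12 h, and the 36 h minus 12 h difference within miR-135b cells was -0.24 ± 0.21. CPLX1, detected on 1 of the 6 arrays of miR-135b cells, had 5.61 and 5.67 at 12 h in miR-135b cells against 7.41 and 7.30 in scrambled cells, and its 36 h minus 12 h difference was -0.33. NR3C2 and BMPR2 had the largest positive differences, 0.73 and 0.67, and KLF4 and ROCK1 the largest negative, -0.66 and -0.63. ROCK1 was detected on 1 of the 6 arrays.

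The other targets lay between these at 36 h minus 12 h. MTCH2 had 0.45, BTRC 0.32, FOXO1 0.23, STK38L 0.18, TXNIP 0.13, PTK2 0.10 and ROCK2 0.03. JAK2 had -0.02, LATS2 -0.07, GSK3B -0.11, SMAD5 -0.19, PHLPP2 -0.22, RUNX2 -0.29 and SIAH1 -0.36. The second probe of PTK2 read -0.24 and that of NR3C2 0.53. The SE of these 14 values ran between 0.14 and 0.41, and the sequence in which they are listed is not a tested order.

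The remaining lists gave few calls. BNIP3L, a mitophagy receptor, was the 1 of 37 hypoxia and glycolysis genes that rose, by 0.82, with 0.58 in scrambled cells, and SPATA18, a p53 target that acts in mitochondrial quality control, the 1 of 23 p53 targets, by 0.81. PNO1 was the 1 of 32 ribosome biogenesis genes that fell, by 0.62, with -0.45 in scrambled cells. Over the 32 the median was -0.20 at 24 h minus 12 h and 0.01 at 36 h minus 24 h. Lists with 0 calls were interferon-stimulated genes (31 measured, median 0.07), ribosomal proteins (56, 0.05), replication-dependent histones (24, -0.26), cholesterol synthesis (19, 0.26), fatty acid synthesis (17, 0.05), the small RNA machinery (12, 0.05), and targets of YAP/TAZ (12, 0.09), of WNT (10, 0.06) and of the BMP and TGF-beta pathways (12, 0.03). Of 18 luminal markers TRPM8 alone passed, and 1 basal, 2 neuroendocrine, 2 mesenchymal and 3 leukocyte markers were measured, of which 0 passed.

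The first interval alone gave no call. At 24 h against 12 h, 0 of 11238 genes passed in miR-135b cells (0%, smallest adjusted p = 0.261), while 1051 had an unadjusted p under 0.05 (9.35%), 529 higher and 522 lower. Of the genes with the smallest p, ROPN1L led with a difference of 1.21, followed by GASK1B at 0.94, BBOF1 at 0.84, LIAT1 at 0.83, ODF2L at 0.79, GADD45B at 1.08, RSPH1 at 0.99 and YPEL1, which was below detection at 12 h and at least 1.57-fold higher at 24 h. In this interval the other kept probes of GASK1B read 0.04 and 0.26, and that of LIAT1 read 0.72. On the negative side were SSR3, of the translocon-associated complex, at -1.07, CDCA7 at -0.85, RRP15 at -0.73, the ubiquitin ligase gene RNF138 at -0.85, the amino acid transaminase gene BCAT1 at -0.79, and TEX19 at -0.71. The zinc finger gene ZFP30 and TMEM161B were below detection at 24 h and at least 1.28-fold and 1.46-fold lower there than at 12 h. SSR3 had 7.06 and 6.76, 5.78 and 5.90, and 6.47 and 6.24 at the 3 times, and was also lowest at 24 h in scrambled cells, at 5.87 and 5.83. Of 50 G1/S genes, 21 had an unadjusted p under 0.05 in the negative direction in this interval, where 4.64% of all genes did. Of the 39 cilia genes, 11 had one in the positive direction, where 4.71% of all genes did. The detection filter chose those 39, and the lists were chosen with earlier results of these data known, so both counts are a description.

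At 36 h against 24 h, 0 genes passed as well (0%, smallest adjusted p = 0.162), and 951 had an unadjusted p under 0.05 (8.46%), 433 higher and 518 lower. Mitotic genes made up 4 of the 8 negative differences of smallest p: KIFC1, CENPA and UBE2C, above, and the spindle orientation gene GPSM2 at -0.74 ± 0.13. The others were FOS at -2.23, PIM3 at -1.22, ZNF165 at -0.75 and STMND1, below detection at 36 h and at least 1.60-fold lower. On the positive side were BCHE at 1.02, RSPH1 at 0.96, PAIP1 at 0.75 and CFAP70 at 0.74. DNAAF4, ZFP30, MYLK and THBS4 were below detection at 24 h and at least 1.26-fold, 1.22-fold, 1.59-fold and 1.36-fold higher at 36 h. The other probe of PAIP1 read 0.04 at 36 h minus 24 h, and 0.13 at 36 h minus 12 h, where its main probe read 0.51. A test of any difference between the 3 times called 5 genes (0.0445%), RSPH1 and CFAP70 at an adjusted p of 0.0356 and BBOF1, FOS and GASK1B, and it called 0 genes when any 1 of the 12 arrays was left out.

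Whether the course differed from that of scrambled cells was tested directly, as the change in miR-135b cells minus the change in scrambled cells. No gene passed for 24 h against 12 h, 36 h against 24 h or 36 h against 12 h (0% each), and 418, 272 and 606 genes had an unadjusted p under 0.05, or 3.72%, 2.42% and 5.39%. At 24 h against 12 h these were 218 higher (1.94%) and 200 lower (1.78%), and at 36 h against 24 h 136 in each direction (1.21%). For 36 h against 12 h the genes with the smallest p were RSPH1 at 1.91 ± 0.27, BBOF1 at 1.28 ± 0.19, DNAAF4 at 1.33 ± 0.21, FHL2 at 1.11 ± 0.18 and CFAP70 at 1.11 ± 0.19, each at an adjusted p of 0.309. Of these, 4 are cilia genes. For FHL2 the scrambled cells carried the difference: it had 6.97 and 6.89 at 36 h and 7.28 and 7.03 at 12 h in miR-135b cells, against 5.56 and 5.64 and 6.93 and 6.93 in scrambled cells. Its other probe read -0.05 at 36 h minus 12 h within miR-135b cells, a value that does not bear on the scrambled cells. With treated and scrambled arrays of the same time and repeat number taken as a random block, 9 genes passed, 8 higher and 1 lower, RSPH1 (adjusted p = 0.0116), BBOF1, DNAAF4, FHL2 and CFAP70 among them. That fit was added after seeing the data, and the same pairing as a fixed block within each time gave 0.

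By list, the median of this difference at 36 h against 12 h was 0.44 for the 39 cilia genes, with 15 of them at an unadjusted p under 0.05 in the positive direction, where 2.72% of all genes reached that. The detection filter chose these 39, and 5 of them, CFAP45, DNAAF11, DNAAF4, DRC3 and ZMYND10, were detected on miR-135b arrays and on no scrambled array, so the median and count are a description. The median was 0.15 over all 86 with a probe, 18 of them at that p, and 0.30 over the 29 detected on all 12 arrays, with 8. The median difference was -0.47 for the 50 G1/S genes, with 20 at an unadjusted p under 0.05 in the negative direction (2.67% of all genes), and -0.33 for the 51 G2/M genes, with 9. The lists were chosen with earlier results of these data known, so these counts are a description as well. For immediate early genes the median difference was 0.12, with 0 in the negative direction and 1, CCN1, in the positive, and for the androgen-induced list -0.05. Among single replication genes it was -0.91 ± 0.26 for MCM4, -0.80 ± 0.17 for RRM2 and -0.73 ± 0.18 for GINS2, and it was -1.05 ± 0.25 for MYB. For 24 h against 12 h the genes of smallest p were UBE2J2 at -1.27, KIAA1549 at 1.13, RSPH1 at 1.32, FHL2 at 0.89 and RNF138 at -1.09. For 36 h against 24 h they were PIM3 at -1.48, ZFP30 at 0.99, RRM2 at -0.80, ACAP3 at -1.51 and MAPK15 at 1.03. For genes below detection in a group, such as DNAAF4, ZFP30 and ACAP3, these fitted differences depend on the offset and are no bounds.

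**Figure D5:**
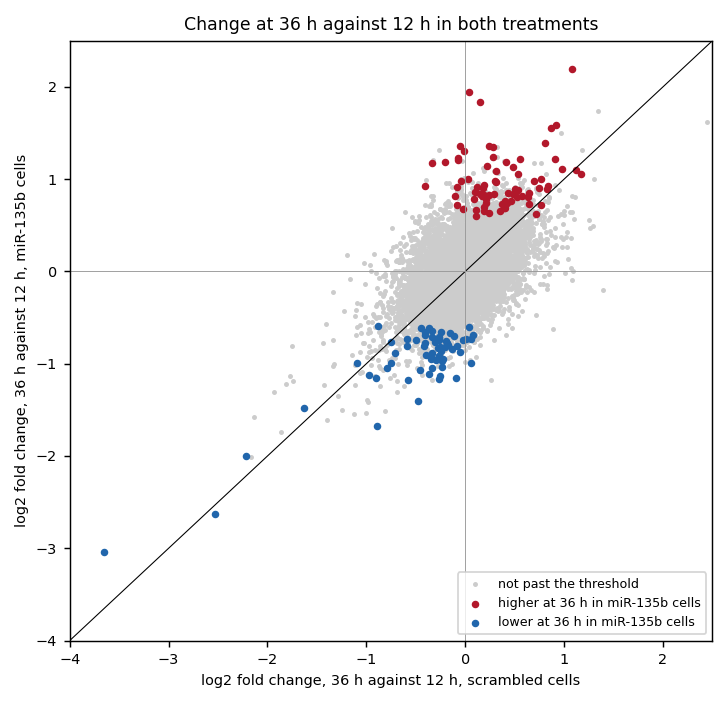
Log2 fold change at 36 h against 12 h of 11238 genes, in miR-135b cells (vertical) against scrambled cells (horizontal), with the line of equal change. FOS, TNF and JUN lie near the line, while RSPH1 and S1PR3 sit far above it, with 1.94 and 1.83 in miR-135b cells and 0.04 and 0.15 in scrambled cells.

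Of the 75 genes that rose, 73 had a 24 h mean between their 12 h and 36 h means, and of the 66 that fell, 62 did, against 45.2% of all genes. The choice of genes by their difference at 36 h against 12 h favours this, so it is given as a description. The medians of the steps were 0.53 and 0.36 among the risers and -0.44 and -0.44 among the fallers.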

How the data were processed

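RNA was measured on 12 Illumina bead arrays. The deposited table holds non-normalized intensity per probe with a detection p-value, per the file headers, and the authors' processed values, on a log2 scale, were deposited beside it. The submitters' processing notes name GenomeStudio 2010.2 and lumi 1.8.3 without their roles. From the intensities, the background was corrected with limma 3.58.1 (R 4.3.3) by normexp from detection p-values with an offset of 16, followed by quantile normalization and log2. Probes detected (p under 0.01) on at least 2 arrays were kept, 19161 of 47323, and the brightest probe with 1 symbol stood for a gene. Group means of all 12 arrays were fitted (lmFit, eBayes, 6 residual degrees of freedom) and p-values adjusted by Benjamini-Hochberg over all genes at 0.05. Signal over background and 2 arrays a group limit the precision.

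The genes named are, per comparison, the 12 largest rises and 12 largest falls past the threshold, or with fewer than 8 calls the smallest p-values up to 8, every measured immediate early gene and miR-135 target, and the called and extreme members of the other lists. For a test of difference without calls they are the 5 of smallest p. The genes and lists were chosen with earlier results of these data known. Deviations of same-numbered arrays from their group means correlated at 0.465, 0.456 and 0.584 between miR-135b and scrambled cells of 1 time. Between the times of miR-135b cells they correlated at 0.18 (12 and 24 h), -0.005 (12 and 36 h) and 0.31 (24 and 36 h). The numbers were taken to pair treatments within a time. They were not taken to pair times, although the values for 12 and 24 h and for 24 and 36 h were positive. Steps were tested on simulated data. Figures used matplotlib 3.10.9.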

Additional observations from a re-analysis of the deposited data

Results flagged for a closer look

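Probes without a gene name took no part in the comparisons above. Of 4253 such probes that were kept, 2 were called at 36 h against 12 h in miR-135b cells, 1 higher and 1 lower, or 0.0470%, and 0 in scrambled cells, in a limma fit to all 19161 kept probes that called 13 in all. Of the 14908 kept probes with a gene name, 0.0738% were called in the same fit, a larger share. The 2 probes are listed because no comparison above used them.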

How the results depend on the processing

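In each setting in which signs were scored, those of the 141 genes that were tested kept their sign. The 141 genes were called on mostly the same arrays, so this is a description. The count of 141 genes at 36 h against 12 h depended on most settings. It was 290 on the values the authors had processed, 29 with median scaling, 214 with the offset raised to 50, 276 where no background was corrected, 37 where no detection filter was set, 212 for probes detected on all 12 arrays, 58 over every probe, 295 with an intensity trend, 6 with array weights and 87 with a random block of time and repeat number. It was 137 with cyclic loess, 177 for probes detected on at least 2 arrays of miR-135b cells and 147 for the mean of probes. The cause was not tested, beyond the other numbers of probes or arrays that some settings fit. The 6 miR-135b arrays alone gave 0 genes with and without the replicate block. Leaving out 1 array gave 0 to 22. The repeat number as a block over all arrays gave 520, all 141 among them. The numbers were not taken to pair the times, between which deviations correlated at 0.18, -0.005 and 0.31 in miR-135b cells.

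The 5 genes called for any difference between 12, 24 and 36 h in miR-135b cells became 0 with median scaling, without the detection filter, over every probe, in the 6 arrays alone with and without the block, with array weights and without any 1 array. They became 45 on the authors' values, 44 without background correction, 10 with the offset of 50, 67 with the trend, 3 with the random block and 154 with the replicate block over all arrays. At 36 h against 24 h, 5 genes passed on the authors' values, 5 without background correction, 4 with the trend and 1 with the repeat block. At 24 h against 12 h, 0 passed in every setting run. For the difference from scrambled cells, the pairing of repeat numbers within each time as a block gave 0 for each of the 3 comparisons and changed no call, and the random block, added after seeing the data, gave 9 for 36 h against 12 h. The 6-array fit with the repeat block was also added after seeing the data. Signals near background limit the low genes, for which bounds are given.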
